A study of Rattus norvegicus with 6 samples.

Results

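Interferon-stimulated genes were compared in the intestines of weanling male rats whose dams had or had not received sitagliptin, an inhibitor of dipeptidyl peptidase 4. The 35 members were listed by symbol as well-known interferon targets, and 32 of them were measured among 18166 genes. *Ddx58*, *Bst2* and *Eif2ak2* had no array row with exactly 1 symbol in the gene table used here and are only named. Both groups were Sprague Dawley pups of 3 weeks, 3 per group with 1 array each, and both came from dams on a high-fat diet (HFD) with 45% of its energy as fat, begun 4 weeks before mating. The HFD-sitagliptin dams also received 10 mg/kg/day of sitagliptin by mouth through pregnancy and lactation; the sample labels name the drug, and the study's methods give the diet and dose. The drug was given to the dams, so the pups met it only through them. The study took 1 male pup from each litter, and which litters gave these arrays is not given in the sources used here. The labels name the tissue as intestine and no part of it. The values are log2 levels that the authors had normalized between arrays, so a difference of 1 is a doubling.

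Type I and type III interferons are secreted when cells sense viral nucleic acid. They act through receptor-bound JAK kinases and a complex that holds STAT2 and IRF9. This complex binds the interferon-stimulated response element (ISRE) of its target genes, while the response to interferon gamma runs through the gamma-activated site (GAS). The targets encode sensors, transcription factors and proteins that block viral replication. In the intestine, microbes maintain a low tonic level of this program, and epithelial cells respond strongly to type III interferon.

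The promoters show how many of the members carry these elements close to their start. Of the 32 measured members, 25 had a RefSeq promoter in GRCr8, which runs from 250 bases before to 50 bases after the start of the gene. The ISRE core was searched as GAAANNGAAA on both strands and the GAS as TTCNNNGAA, which reads the same on both strands. The ISRE core was found in 13 of the 25 promoters (52%), against 3.92% of all 33469 promoters in the table and 3.58% of 16050 promoters of genes on the array. The GAS was found in 6 of the 25 (24.0%), against 8.87% and 7.84%. The genes were listed as interferon targets, so these shares describe the list and are no test. In 12 of the 13 promoters an ISRE core began before the start of the gene, and in *Dtx3l* it lay just after it. The 2 cores of *Oas1a* overlapped each other. *Mx1* and *Parp9*, described later, had a promoter in the table that held neither motif. The stretches below are a selection from the members with a match, and each of their genes is described further on. The motif is in capitals with up to 25 bases on each side, on the strand of the gene, 5′ to 3′. A match is a run of letters and not a site shown to be bound.
Parp14, ISRE core, chr11:78408033-78408092 (+): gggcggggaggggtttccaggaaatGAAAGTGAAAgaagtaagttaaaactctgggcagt
Ifih1, ISRE core, chr3:67683993-67684052 (-): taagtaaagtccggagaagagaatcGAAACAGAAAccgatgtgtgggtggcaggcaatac
Irf7, ISRE core, chr1:205800058-205800117 (-): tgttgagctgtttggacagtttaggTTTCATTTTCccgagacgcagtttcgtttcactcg
Oas1a, ISRE core, chr12:41330406-41330465 (+): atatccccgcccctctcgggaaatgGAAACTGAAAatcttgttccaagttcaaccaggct
Xaf1, ISRE core, chr10:57415899-57415958 (+): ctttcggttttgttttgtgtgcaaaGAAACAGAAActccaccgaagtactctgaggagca
Rsad2, ISRE core, chr6:48788233-48788292 (-): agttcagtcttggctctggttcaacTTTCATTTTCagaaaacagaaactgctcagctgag
Gbp2, ISRE core, chr2:234005671-234005730 (+): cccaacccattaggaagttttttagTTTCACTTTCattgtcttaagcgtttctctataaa
Samhd1, GAS, chr3:166214530-166214588 (-): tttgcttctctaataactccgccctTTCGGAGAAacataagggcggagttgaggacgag
Irf1, GAS, chr10:38417768-38417826 (+): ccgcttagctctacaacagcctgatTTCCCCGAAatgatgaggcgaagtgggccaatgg
*Parp14* also carried a GAS, from base -87 to -79 before the start, with its ISRE core from -76 to -67. HFD-sitagliptin replicate 1, described later, held the lowest of the 6 values for 8 of the 13 members with an ISRE core, such as *Parp14* and *Xaf1*, and for 9 of the 12 without one, such as *Samhd1*, which held a GAS alone, and *Herc6*, which held neither. *Ifit1* and *Zbp1*, also lowest there, are among the 7 members without a promoter in the table. The members with an ISRE core had log2 fold changes with a median of 0.029, against -0.056 for the 12 without one, and without HFD-sitagliptin replicate 1 the medians were 0.26 and 0.095.

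**Figure D1:**
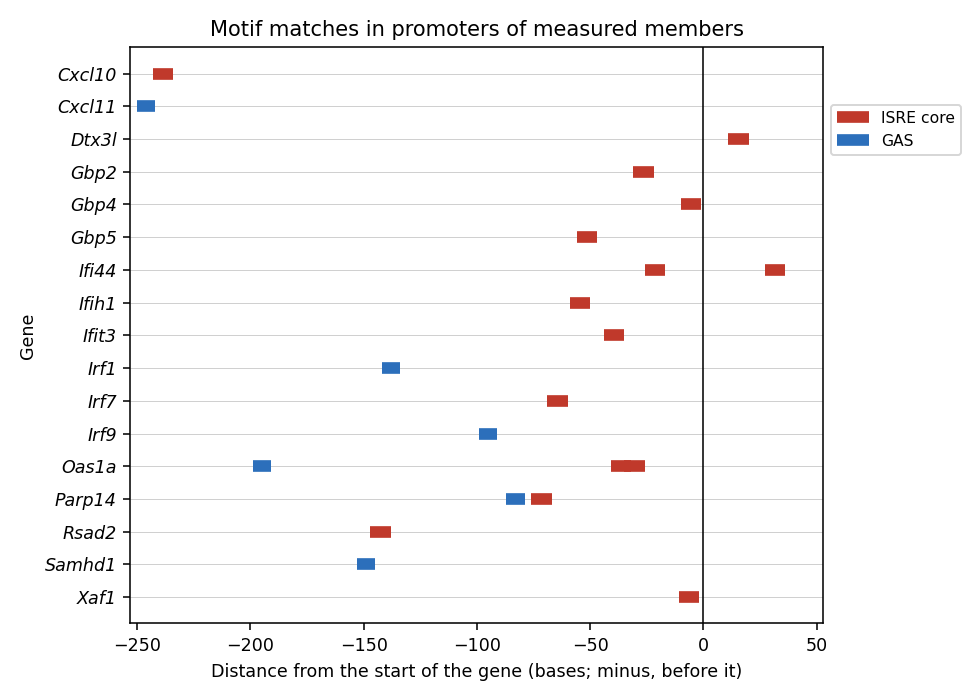
Position of each ISRE core (red) and GAS (blue) in the promoters of the 17 measured members that hold at least 1 match; the x axis is the distance in bases from the start of the gene, at 0, and each row is a gene. Most ISRE cores lie within the last 100 bases before the start, and those of *Cxcl10* and *Rsad2* lie farther upstream.

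As a group, the interferon-stimulated genes showed few differences past the spread between pups. Past the study's threshold (unadjusted p under 0.05 in limma and at least 1.5-fold), 1 of 32 measured members was higher, none was lower and 31 were not called. Among all genes, 0.705% were higher past this threshold and 1.3% were lower. The one member was *Mx1*. The lowest adjusted p of a member in limma was 0.718, so 0 members reached 0.05 after adjustment. Before adjustment 2 did, *Mx1* and *Usp18*, in limma and in the methods' t-test alike. Log2 fold changes, HFD-sitagliptin minus HFD, ran from -1.30 for *Samhd1* to 0.65 for *Mx1*, with 14 above and 18 below 0. Their median was -0.0098, against 0.010 over all genes, with a median standard error of 0.26. The groups did not overlap for *Mx1* and *Usp18*, both higher, and for *Parp9*, which was lower, and over all genes 5.97% were higher and 5.54% lower without overlap.

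**Figure D2:**
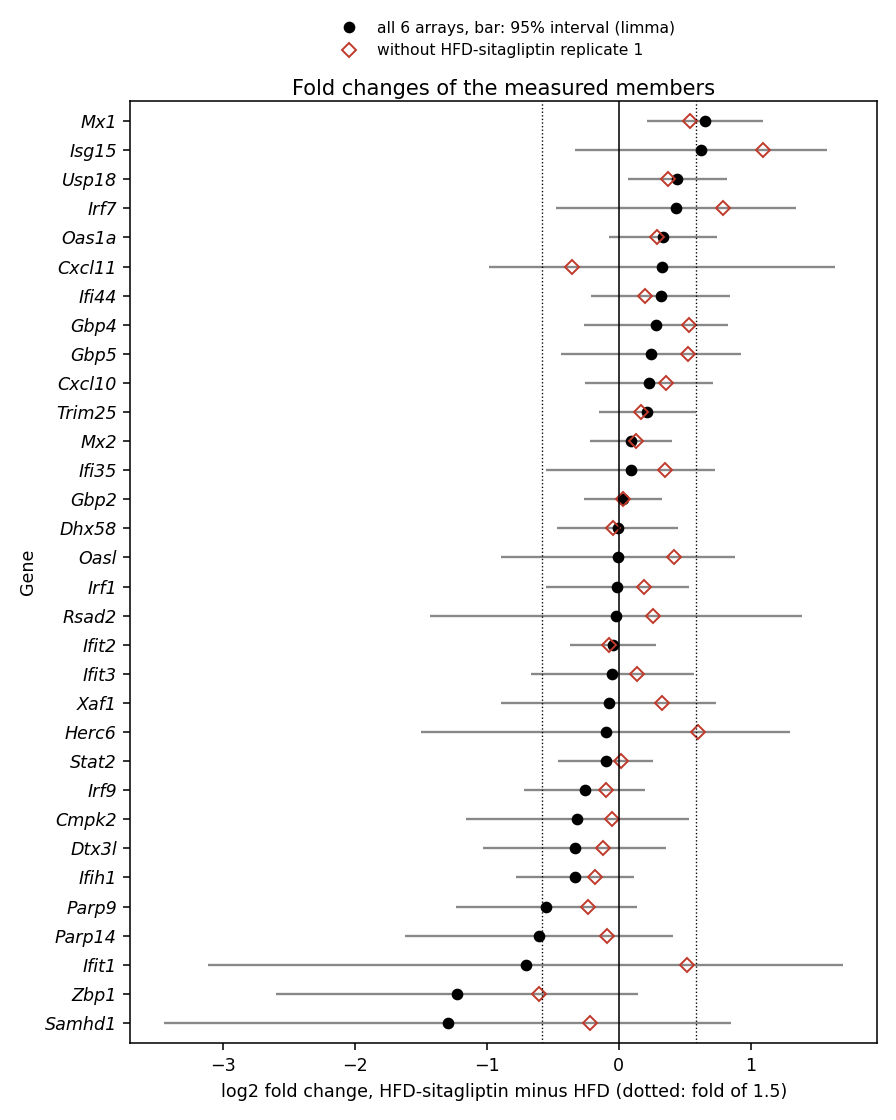
Log2 fold change (HFD-sitagliptin minus HFD) of each measured member on the x axis with all 6 arrays (black, bar the 95% interval from limma) and without HFD-sitagliptin replicate 1 (red diamonds); dotted lines mark a fold of 1.5. The interval of *Samhd1* runs from -3.45 to 0.85, and its value without that array is -0.22.

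One array set much of the spread. HFD-sitagliptin replicate 1 held the lowest of the 6 values for 20 of the 32 members (62.5%), while it was lowest for 21.2% of all genes and highest for 25.9%. Its members lay at a median of 0.53 below the mean of the other 5 arrays, with a range of -3.37 for *Ifit1* to 1.82 for *Cxcl11*; over all genes that median was 0.010 above it. HFD-sitagliptin replicate 2 held the highest value for 13 members (40.6%, against 15.4% of all genes) and the lowest for none. The same replicate 1 stood apart in the genes of the absorptive epithelium. *Si*, which encodes sucrase-isomaltase, a digestive enzyme of the small intestine, was at 2.72 there and at 11.39 to 12.49 in the other arrays, and *Car1*, a carbonic anhydrase gene of the colon, at 12.41 against 3.41 to 4.04. Of 9 measured genes of the colon epithelium, 4 were highest in that array and 5 lay between the other values. Of the same 9, 5 had a mean level not above the 95th percentile of olfactory receptor genes, which the gut hardly expresses. The summed level of the 9, in which the brightest genes weigh most, was 12.97 in that array and 10.23 to 10.81 in the others. Whether that array holds another part of the gut was not tested. Over all genes that array correlated with the others at 0.926 to 0.940, and the others among themselves at 0.968 to 0.985. Of 16 measured brush border genes, 14 were lowest in that array, and their summed level was 12.12 to 15.24 in HFD-sitagliptin and 15.02 to 15.51 in HFD pups. A separate list of 7 epithelial markers was not low there, with 1 gene lowest and 3 highest in that array. The summed level of these 7 was 13.11 in that array and 12.87 to 13.15 in the others. All 8 measured smooth muscle genes were highest in HFD-sitagliptin replicate 1, at a summed level of 11.82 to 13.82 in HFD-sitagliptin against 11.84 to 12.43 in HFD pups. Of 20 genes of macrophages and dendritic cells, 12 were highest in that array. The median of their values minus each gene's mean over the 6 arrays was 0.48 there and -0.24 to 0.048 in the others. Their summed level, in which the brightest genes weigh most, was 12.70 there. It was 12.74 and 13.65 in HFD-sitagliptin replicates 3 and 2 and 12.73 to 13.16 in HFD pups. With all arrays 3 of the 20 were higher past the threshold in limma, *Spi1*, *Adgre1* and *Itgam*, and without that array 1 was, *Itgam*. Over all genes, 0.705% were higher with all arrays and 0.732% without that array. The part of these cell types in the low interferon-stimulated genes was not tested, and in whole tissue fewer cells of a type cannot be told apart from less RNA per cell.

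**Figure D3:**
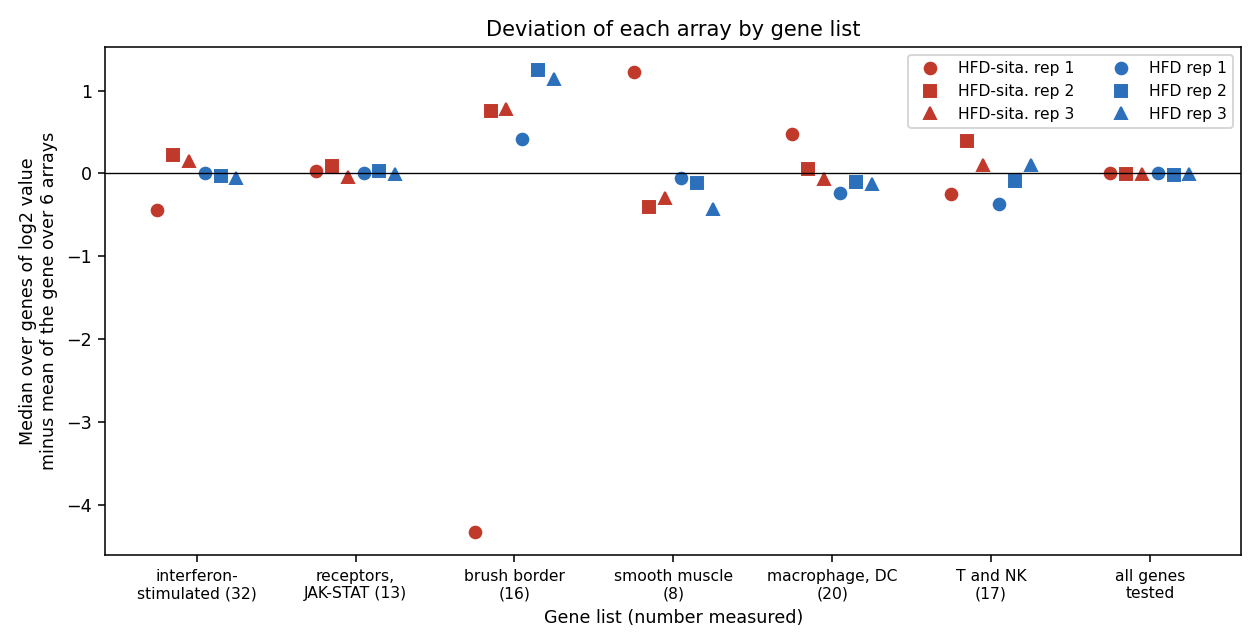
For each gene list on the x axis, the median over its genes of the array's log2 value minus the gene's mean over the 6 arrays, 1 point per array (red, HFD-sitagliptin; blue, HFD; the shape gives the replicate). HFD-sitagliptin replicate 1 lies at -0.45 for the interferon-stimulated genes and at -4.33 for the brush border genes, and at 1.22 for the smooth muscle genes.

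Without HFD-sitagliptin replicate 1 the median log2 fold change of the members was 0.18, against -0.0072 over all genes, and 3 members were higher past the threshold and none was lower in limma. These were *Isg15*, *Irf7* and *Herc6*. In this fit of 2 against 3 arrays, 0.732% of all genes were higher and 0.903% were lower, and no member had an adjusted p under 0.05. *Mx1* was not past the threshold in it (log2 fold change 0.54). In the same fit, 3 of 17 genes of T and NK cells and 2 of 8 genes of B and plasma cells were higher and none was lower past the threshold in limma. The summed level of the T and NK genes was 10.59 and 10.14 in HFD-sitagliptin replicates 2 and 3 and 9.80 to 10.17 in HFD pups. Their part in the result was not tested.

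**Figure D4:**
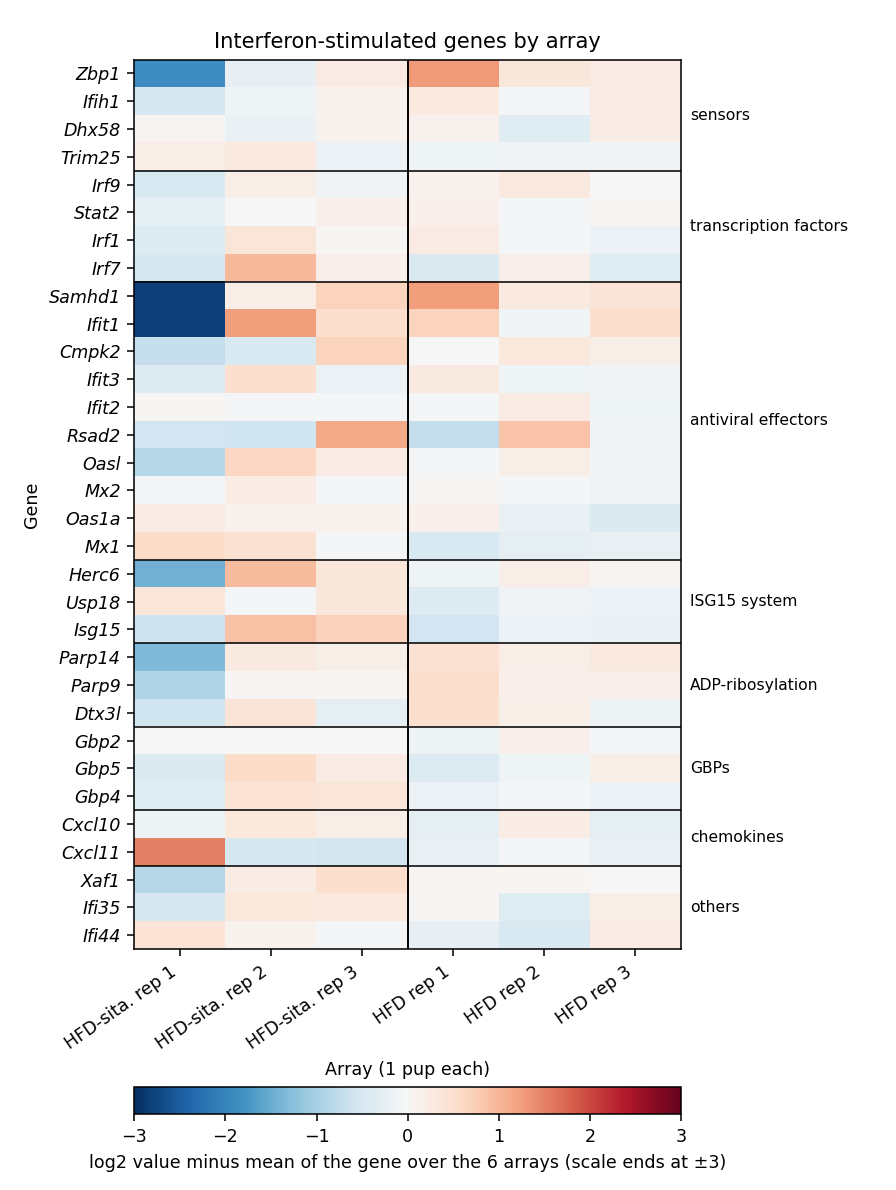
Log2 value of each measured member (rows, grouped by role) minus the gene's mean over the 6 arrays, by array (columns; 3 HFD-sitagliptin, then 3 HFD), on a colour scale from -3 (blue) to 3 (red). The blue cells of *Samhd1*, *Ifit1*, *Zbp1*, *Herc6* and *Parp14* all stand in HFD-sitagliptin replicate 1, where *Cxcl11* is red.

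None of the 4 measured sensors of viral nucleic acid and their partners passed the threshold. *Trim25*, the ubiquitin ligase that activates the RNA sensor RIG-I, was at 8.53, 8.62 and 8.16 in HFD-sitagliptin replicates 1 to 3 and 8.20, 8.23 and 8.23 in the HFD replicates. The groups overlapped and differed by 0.22 (standard error 0.15). *Zbp1*, a sensor of Z-form nucleic acid that triggers necroptosis, was at 4.66, 6.28 and 6.77 against 7.79, 6.86 and 6.75. Replicate 1 was lowest of the HFD-sitagliptin arrays and highest of the HFD arrays, and the groups overlapped by a narrow margin. Its log2 fold change was -1.23 (standard error 0.57, limma adjusted p = 0.718), and it ran from -1.66 to -0.61 with 1 array left out, past the threshold only without HFD-sitagliptin replicate 3. *Ifih1*, which encodes MDA5, the sensor of long double-stranded RNA, was at 6.27, 6.62 and 6.86 against 7.04, 6.72 and 6.99, a log2 fold change of -0.33 (standard error 0.19). *Dhx58*, which encodes the related helicase LGP2, lay between 4.14 and 4.72 in all arrays.

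The 4 transcription factors of the pathway were all lowest in HFD-sitagliptin replicate 1, and none was past the threshold in limma with all arrays. *Irf1*, which also responds to interferon gamma, was at 7.94, 8.71 and 8.39 in HFD-sitagliptin and 8.60, 8.29 and 8.18 in HFD pups. Its group means were 8.35 ± 0.39 and 8.36 ± 0.22 (SD, n = 3), and the interval of its difference ran from -0.56 to 0.53. *Irf7*, the factor that amplifies interferon alpha production, was at 6.33, 7.80 and 6.98 against 6.39, 6.96 and 6.46. It was highest in HFD-sitagliptin replicate 2, and the lowest value of each group was in replicate 1. The log2 fold change of *Irf7* was 0.43 (standard error 0.38), and 0.79 (standard error 0.31) and past the threshold without HFD-sitagliptin replicate 1. *Irf9* and *Stat2*, which encode subunits of the ISRE-binding complex, had log2 fold changes of -0.26 and -0.10, with standard errors of 0.19 and 0.15.

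Among 10 measured antiviral effectors, *Mx1* was higher past the threshold and 9 did not pass. *Mx1* encodes a dynamin-like GTPase that blocks the replication of influenza virus in rodents. It was at 4.49, 4.39 and 3.91 in HFD-sitagliptin pups and 3.49, 3.63 and 3.71 in HFD pups. All 3 HFD-sitagliptin arrays were above all HFD arrays. The log2 fold change was 0.65 (standard error 0.18, limma adjusted p = 0.718), a fold of 1.57. The mean level of *Mx1*, 3.94, lay at percentile 88.9 of the olfactory receptor genes, which the gut hardly expresses, and so cannot be told from background. *Mx2*, *Ifit2*, *Ifit3* and *Gbp4* also lay below 4.44, which is the 95th percentile of those genes, and the other 27 members were above it.

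*Samhd1* and *Ifit1* were the most variable members. *Samhd1* encodes a hydrolase that depletes the deoxynucleotides a virus needs for DNA synthesis. It was at 5.24, 8.23 and 8.70 in HFD-sitagliptin and 9.31, 8.33 and 8.43 in HFD pups. Replicate 1 of HFD-sitagliptin stood far below the other arrays. The log2 fold change was -1.30 (standard error 0.89) and was -0.22 (standard error 0.34) without that array. *Ifit1*, whose product binds viral RNA with unmethylated caps, was at 4.88, 8.93 and 8.17 against 8.35, 7.60 and 8.16. The same array was low, and the other HFD-sitagliptin arrays held the highest value of all and one within the HFD range. Its log2 fold change was -0.71 (95% interval -3.12 to 1.70) with all arrays and 0.52 (standard error 0.32) without HFD-sitagliptin replicate 1. *Oas1a*, a synthetase of the oligoadenylates that activate RNase L, had no low array, at 6.78, 6.66 and 6.65 against 6.67, 6.32 and 6.10 (log2 fold change 0.33, standard error 0.17). *Oasl*, of the same family, was at 5.39 in HFD-sitagliptin replicate 1 and at 6.15 to 6.87 in the others.

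*Rsad2* and *Cmpk2* are next to each other in the gene order of GRCr8 and act together, since the kinase encoded by *Cmpk2* supplies the nucleotide that viperin, the product of *Rsad2*, turns into a chain terminator. *Rsad2* was at 4.71, 4.70 and 6.43 in HFD-sitagliptin and 4.58, 6.15 and 5.19 in HFD pups, and *Cmpk2* at 5.61, 5.85 and 6.97 against 6.29, 6.61 and 6.47. Both were highest in HFD-sitagliptin replicate 3 and second in HFD replicate 2, so the high arrays did not follow the groups. Their log2 fold changes were -0.023 and -0.31, with standard errors of 0.59 and 0.35, and *Cmpk2* was past the threshold, at -0.73, only without HFD-sitagliptin replicate 3.

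The ISG15 system attaches a ubiquitin-like protein to other proteins and removes it. *Isg15*, the modifier itself, was at 4.66, 6.16 and 5.98 in HFD-sitagliptin and 4.72, 5.12 and 5.09 in HFD pups. HFD-sitagliptin replicates 2 and 3 were above all HFD arrays and replicate 1 was below them. The log2 fold change of *Isg15* was 0.62 (standard error 0.40, limma adjusted p = 0.718) with all arrays, with an interval of -0.33 to 1.58, and 1.09 (standard error 0.17) without replicate 1. *Herc6*, the main ISG15 ligase in mice, was at 5.22, 7.63 and 7.02 against 6.54, 6.87 and 6.76. It had the same order, with HFD-sitagliptin replicate 1 below and replicates 2 and 3 above the HFD range. Its log2 fold change was -0.10 (standard error 0.58), and 0.60 (standard error 0.22) without that array. *Usp18*, which removes ISG15 and dampens type I interferon signalling, was at 5.24, 4.84 and 5.20 against 4.49, 4.76 and 4.69. Here all HFD-sitagliptin arrays lay above the HFD arrays, with a log2 fold change of 0.44 (standard error 0.16), below the fold of 1.5. These values are those of the brighter of its 2 clusters on the array. With the mean of both clusters the log2 fold change of *Usp18* was smaller, at 0.25.

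The genes of the PARP9 and DTX3L complex and *Parp14* adjoin each other in the genome, and *Parp9* and *Dtx3l* overlap. All 3 encode proteins of ADP-ribosylation or its partner ubiquitin ligase that respond to interferon. *Parp14* was at 6.10, 7.69 and 7.60 in HFD-sitagliptin and 7.86, 7.63 and 7.73 in HFD pups. *Parp9* was at 5.99, 6.93 and 6.95 against 7.42, 7.06 and 7.06, with all HFD-sitagliptin arrays below the HFD arrays. All 3 were lowest in HFD-sitagliptin replicate 1 and highest in HFD replicate 1. Their log2 fold changes were -0.61, -0.55 and -0.33 for *Parp14*, *Parp9* and *Dtx3l*, with standard errors of 0.42, 0.29 and 0.29, and -0.092, -0.23 and -0.12 without HFD-sitagliptin replicate 1. *Dtx3l* was past the threshold, at -0.61, only without HFD-sitagliptin replicate 2.

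The guanylate-binding proteins, GTPases that attack the vacuoles of intracellular pathogens, showed small differences. *Gbp2* was at 5.20, 5.21 and 5.20 in HFD-sitagliptin and 5.04, 5.34 and 5.16 in HFD pups, and its difference of 0.029 had an interval of -0.27 to 0.32, which leaves out a fold of 1.5 in either direction. *Gbp4* and *Gbp5* had log2 fold changes of 0.28 and 0.24 with all arrays and of 0.54 and 0.52 without HFD-sitagliptin replicate 1, not past the threshold in either fit. Members of the *Gbp*, *Oas*, *Ifit* and *Mx* families resemble each other, and how the probes tell the copies apart is not given in the sources used here.

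The chemokine genes *Cxcl10* and *Cxcl11*, which lie side by side and encode ligands of CXCR3, a receptor on T cells, differed in pattern. *Cxcl11* was at 7.62, 5.63 and 5.54 in HFD-sitagliptin and 5.87, 6.08 and 5.87 in HFD pups. It was highest in HFD-sitagliptin replicate 1, the array in which most members were lowest, and the other HFD-sitagliptin arrays were below the HFD range. The log2 fold change of *Cxcl11* was 0.33 (standard error 0.55) with all arrays and -0.35 (standard error 0.13) without that array. *Cxcl10* lay between 4.82 and 5.43 in all arrays, with a log2 fold change of 0.23 (standard error 0.20).

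Of the remaining members, *Ifi35*, which encodes a leucine zipper protein, was at 6.04, 6.85 and 6.81 in HFD-sitagliptin and 6.55, 6.15 and 6.73 in HFD pups, with overlapping groups. *Xaf1*, whose product promotes apoptosis by opposing XIAP, was at 4.02, 5.07 and 5.38 against 4.93, 4.91 and 4.86. HFD-sitagliptin replicates 2 and 3 were above and replicate 1 was below the HFD arrays, which ran from 4.86 to 4.93. The log2 fold changes of *Ifi35*, *Xaf1* and *Ifi44* were 0.089, -0.079 and 0.32, with standard errors of 0.27, 0.34 and 0.22.

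**Figure D5:**
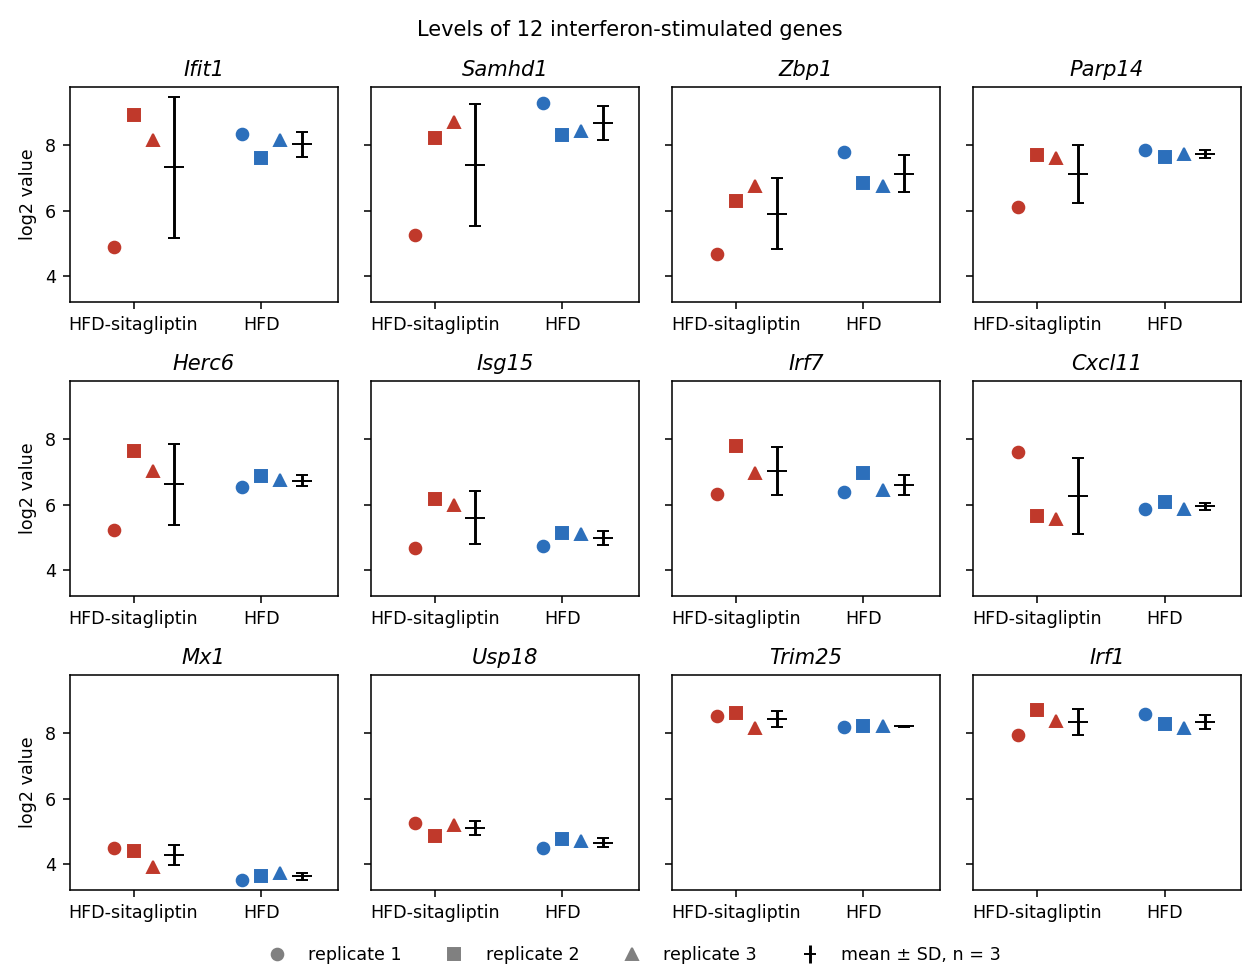
Log2 values of selected members by group (red, HFD-sitagliptin; blue, HFD; the shape gives the replicate; black, mean ± SD, n = 3), on a common y axis. *Ifit1*, *Samhd1*, *Zbp1*, *Parp14* and *Herc6* have 1 low HFD-sitagliptin point, that of replicate 1, which is the high point for *Cxcl11*, while the groups are apart for *Mx1* and *Usp18*.

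The rest of the pathway was read from lists of interferon ligands, receptors and kinases, upstream sensors and other interferon-stimulated genes, in all 95 measured of 117 listed. Of these, 6 were lower past the threshold, none was higher in limma and 89 were not past it, against 1.3% lower and 0.705% higher over all genes. Their median log2 fold change was -0.069. Without HFD-sitagliptin replicate 1, 2 of the 95 were higher and 1 was lower past the threshold in limma, against 0.732% and 0.903% of all genes. In the fit blocked on replicate, 3 of the 95 were lower, *Ifng*, *Ifna1* and *Trim14*, and in the methods' t-test 1 was, *Ifng*. Over all 18166 genes, 314 were lower with the block and 100 in the methods' t-test. The ligands *Ifng* and *Ifna1* had log2 fold changes of -0.65 and -0.62. Their mean levels, 3.68 and 2.80, ranked at 83.7% and 56.2% of the olfactory receptor genes and cannot be told from background. Leaving out HFD-sitagliptin replicate 2 or HFD replicate 2 ended the call of *Ifng*, and *Ifna1* stayed past it only without HFD-sitagliptin replicate 3 or HFD replicate 1. *Ifna2* and *Ifnl3* are the measured ligands with the highest mean signal, with log2 fold changes of -0.11 and 0.094. Of 13 receptor and kinase genes and 13 upstream genes, none was past the threshold in limma with all arrays or in the methods' t-test, and 0 and 1 had an unadjusted p under 0.05 in limma. *Ifngr1* and *Il10rb*, which encode chains of the interferon gamma receptor and of the type III interferon receptor, had mean levels of 9.66 and 9.18 and log2 fold changes of 0.16 and -0.24. *Tbk1*, the kinase that activates IRF3, and *Tlr3*, a receptor for double-stranded RNA, had log2 fold changes of -0.45 and -0.52, each with a standard error of 0.28. The value of *Tbk1* was -0.14 without HFD-sitagliptin replicate 1. *Tlr3* was at 9.10 in HFD replicate 1 and at 7.82 to 8.29 in the other arrays.

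Among 61 other interferon-stimulated genes, 4 were lower and 57 were not past the threshold, where 1.3% of all genes were lower. *Lgals9*, a galectin, was at 8.15, 9.75 and 9.89 in HFD-sitagliptin and 11.32, 10.55 and 10.01 in HFD pups, and *Psme1*, a subunit of the proteasome activator PA28, at 6.65, 7.13 and 7.62 against 8.48, 7.78 and 7.75. In both, all HFD-sitagliptin arrays were below the HFD arrays, with the lowest and the highest value in the replicates numbered 1. Their log2 fold changes were -1.37 (standard error 0.54) and -0.87 (standard error 0.31), and those of *Ifi30*, a thiol reductase of antigen processing, and *Trim14*, an adaptor of antiviral signalling, were -0.78 and -0.72. None of the 4 was past the threshold without HFD-sitagliptin replicate 1 (-0.81, -0.63, -0.45 and -0.62), nor without HFD replicate 1. *Lgals9* was also lost without HFD replicate 2, *Psme1* and *Trim14* without HFD-sitagliptin replicate 2, and *Ifi30* in each fit except that without HFD-sitagliptin replicate 3. The genes with the highest mean signal were *B2m*, the light chain of MHC class I, and *Lap3*, an aminopeptidase, with log2 fold changes of -0.21 and -1.30; *Lap3* was at 7.47 in HFD-sitagliptin replicate 1 and at 10.37 to 11.20 elsewhere.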

How the data were processed

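Transcript levels in the intestines of 6 male rat pups, 3 per group, were measured with Affymetrix GeneChip Rat Gene 2.0 ST arrays, 1 per pup. The deposited log2 values, 1 per transcript cluster and array, had been normalized by the authors in GeneSpring 12.5 with an algorithm not given in the sources used here, and that the scale is log2 was read from their range. Groups came from the sample labels. Of 36685 clusters, 18511 carried exactly 1 symbol in the platform's gene table, and the cluster with the highest mean represented each of 18166 genes; of the members, *Usp18* had more than 1 cluster. No gene was filtered out. The groups were compared in limma 3.58.1 (R 4.3.3) without covariates, with Benjamini-Hochberg adjustment over all genes, and the study's threshold is an unadjusted p under 0.05 together with a change of at least 1.5-fold. The fit was tested on simulated data.

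The numbers of the replicates were checked for pairing across genes. After subtraction of group means, arrays of the same number correlated at 0.146, 0.284 and 0.148, and arrays of different numbers at -0.24 to 0.0201. The subtracted values of a group cancel out for each gene, so these correlations depend on each other and cannot establish a pairing. Neither the labels nor the study's methods state one. A fit with the number as a block was run as an alternative.

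Array values are given for members past the threshold, members whose groups do not overlap and the member with the highest mean in each role. The array values of *Ifit1*, *Zbp1*, *Ifih1*, *Oas1a*, *Isg15*, *Irf7*, *Rsad2*, *Cmpk2* and *Xaf1* were added after they were seen. From the other interferon lists, genes past the threshold and the 2 with the highest mean in each list are named. The members and all lists were chosen with earlier results of these data known. Background was read from 1185 genes of olfactory receptors, which the gut hardly expresses. Promoters, from 250 bases before to 50 after a gene's start, were those of RefSeq for assembly GRCr8. The alternatives were the methods' t-test with equal variances, limma with trend and robust moderation, quantile normalization, centring on the median, leaving out genes with a mean below the 40th percentile of all clusters, the mean of a gene's clusters, each array left out, and a fold of at least 2 or none.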

Additional observations from a re-analysis of the deposited data

How the results depend on the processing

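The number of members past the threshold was 1 with the methods' t-test, trend and robust moderation, quantile normalization, centring, the mean of a gene's clusters and the replicate block, 0 with dim genes left out (which removes *Mx1*) or a fold of at least 2, 2 with no fold threshold, and 1 to 3 with 1 array left out. For all genes the count was 365, of which 128 were higher and 237 lower, and 158 in the methods' t-test, 57 at a fold of at least 2, 1040 with no fold threshold and 239 to 880 with 1 array left out; with centring, 81 were higher and 390 lower. For the other interferon genes it was 6, and 1 in the methods' t-test, 3 with the replicate block, 1 at a fold of at least 2 and 1 to 8 with 1 array left out. The replicate block changed no call of a member. The median of the members stayed between -0.072 and 0.18. With quantile normalization the sign turned for *Oasl* (0.016), *Irf1* (0.052) and *Gbp2* (-0.028), and with centring for *Gbp2* (-0.034). With 1 array left out it turned for 13 members, whose log2 fold changes ran from -0.33 to 0.42 for *Oasl*, -1.51 to 0.52 for *Ifit1*, -0.12 to 0.064 for *Ifit2*, -0.32 to 0.13 for *Ifit3*, -0.19 to 0.19 for *Irf1*, -0.20 to 0.018 for *Stat2*, -0.60 to 0.40 for *Rsad2*, -0.073 to 0.35 for *Ifi35*, -0.19 to 0.10 for *Dhx58*, -0.60 to 0.60 for *Herc6*, -0.042 to 0.11 for *Gbp2*, -0.35 to 0.69 for *Cxcl11* and -0.36 to 0.32 for *Xaf1*. Depth is not defined for arrays, and 3 arrays per group limit the precision.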

Other observations

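A few interferon-stimulated genes outside the members, picked after their values were seen, were highest in the array in which most members were lowest. *Ifitm1*, *Ifitm2* and *Ifitm3* encode membrane proteins that block the entry of viruses into cells. *Ifitm2* was at 8.80 in HFD-sitagliptin replicate 1 and at 7.36 to 7.97 in the other arrays, *Ifitm1* was at 9.24 against 8.22 to 8.65 and *Ifitm3* at 7.73 against 6.58 to 7.12. *Ifi27* was at 9.08 there and at 7.52 to 8.61 elsewhere, and the exonuclease gene *Isg20* at 7.89 against 6.38 to 7.36. *Ube2l6*, the conjugating enzyme for ISG15, went with the low members, at 5.39 in that array and 7.16 to 7.57 in the others. With all arrays, limma called none of these genes. Of the 61 other interferon-stimulated genes, 30 (49.2%) were lowest in HFD-sitagliptin replicate 1, against 21.2% of all genes, and 9 (14.8%) were highest in it, against 25.9% of all genes, so genes high in that array were no more frequent here than over all genes. What sets apart the genes that were high in it was not tested.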
